A study of Mus musculus with 3 samples.

Results

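The regions described here are stretches of the mouse genome that carried a peak of H3K27ac in tibialis anterior (TA) muscle at 20 months of age and none at 2 or 10 months. All peaks of the 3 ages on chromosomes 1 to 19 were merged where they overlapped or touched, and a merged region was kept when it held a 20-month peak and no peak of the other ages. The members were thus chosen by the presence or absence of a peak in these same libraries, so their number and their place on the list of ages are a description and not a finding. The rule gave 12669 regions of 51147, which is 24.8% of all merged regions and 30.3% of the 41816 regions with a 20-month peak. Every one of them held exactly 1 peak, and together they covered 3.49 Mb.

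The libraries came from whole TA muscle of C57/BL6 mice aged 2, 10, and 20 months (10 to 12 months for the middle age in the study's methods), with 1 H3K27ac library (antibody Abcam ab4729) per age and no treatment or transgene in any of them. How many animals went into a library is not given in the sources used here. The tissue label names TA muscle, whereas the extraction protocol in the labels speaks of activated satellite cells and of RNA. Because each age had a single library, differences between ages could not be tested, and intervals cover counting error only.

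H3K27ac is an acetyl group on lysine 27 of histone H3, deposited by the acetyltransferases p300 and CBP at promoters and enhancers in use and removed by histone deacetylases. In skeletal muscle the mark is laid down in myofiber nuclei as well as in satellite cells, leukocytes, vessel cells, and fibroblasts, and the extracellular matrix (ECM) around the fibers is made largely by the fibroblasts. Chromatin of whole muscle pools these cells, so fewer cells of a type and less signal per cell cannot be told apart.

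Of the 83 autosomal ECM genes whose transcription start sites (TSSs) the study lists on mm9, 11 had a 20-month-only region within 500 bp of the TSS. The letters of the regions themselves were not read, because no genome of build mm9 was used. The 250 bases before the RefSeq start are shown for 4 of the 11. These had a single RefSeq match whose gene length differed by at most 50 bp from the listed one. Their 20-month-only regions began 0.042 to 0.349 kb downstream of the listed TSS, whereas the bases shown lie upstream. The bases are given 5′ to 3′ on the strand of the gene (the plus strand for all 4). They come from build GRCm38.p6, whose positions do not carry over to mm9. Capitals mark matches, on either strand, to GGGCGG (bound by SP and KLF factors), CCAAT (NF-Y), TATAAA (the TATA box), TGANTCA (AP-1), CAGCTG (an E-box), or GGAATG (TEAD).
Tgfbi, chr13:56609336-56609585: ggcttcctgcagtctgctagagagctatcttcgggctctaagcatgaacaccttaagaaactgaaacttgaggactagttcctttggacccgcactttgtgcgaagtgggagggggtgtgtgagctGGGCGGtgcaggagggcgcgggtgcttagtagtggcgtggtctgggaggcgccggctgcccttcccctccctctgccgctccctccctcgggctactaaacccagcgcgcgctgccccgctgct
Thbs3, chr3:89214930-89215179: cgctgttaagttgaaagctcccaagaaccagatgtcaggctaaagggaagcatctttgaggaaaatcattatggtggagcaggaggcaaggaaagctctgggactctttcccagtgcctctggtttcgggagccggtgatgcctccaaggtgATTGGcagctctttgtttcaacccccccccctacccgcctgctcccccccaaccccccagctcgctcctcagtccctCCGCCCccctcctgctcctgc
Vtn, chr11:78498870-78499119: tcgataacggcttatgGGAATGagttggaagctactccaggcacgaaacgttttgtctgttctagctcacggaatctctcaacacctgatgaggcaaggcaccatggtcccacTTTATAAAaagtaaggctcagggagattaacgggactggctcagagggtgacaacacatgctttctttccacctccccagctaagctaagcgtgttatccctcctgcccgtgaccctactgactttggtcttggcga
Col5a1, chr2:27886175-27886424: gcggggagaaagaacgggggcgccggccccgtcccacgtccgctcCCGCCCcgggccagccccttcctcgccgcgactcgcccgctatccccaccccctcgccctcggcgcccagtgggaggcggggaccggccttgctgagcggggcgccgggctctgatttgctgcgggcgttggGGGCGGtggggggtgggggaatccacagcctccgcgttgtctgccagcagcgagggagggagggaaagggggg

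The window of Col5a1 (the pro-α1 chain of type V collagen, which starts collagen fibrils) was 76.4% GC with 28 CpG and held GGGCGG at 2 places. That of Tgfbi (an adhesion protein induced by TGF-β) was 62.4% GC with 15 CpG and held GGGCGG at 1 place. That of Thbs3 (a pentameric thrombospondin) was 58.8% GC with 6 CpG and held 1 GGGCGG and 1 CCAAT. That of Vtn (vitronectin, a plasma and matrix adhesion protein) was 50.4% GC with 9 CpG and held 2 overlapping matches to TATAAA on opposite strands and 1 GGAATG. Among all 32851 RefSeq promoters, the same 250 bases had a median of 52.4% GC (quartiles 45.2 and 61.2) and 6 CpG. GGGCGG was present in 32.7% of them, CCAAT in 33.8%, TATAAA in 12.4%, TGANTCA in 6.75%, CAGCTG in 13.0%, and GGAATG in 12.6%. No match to TGANTCA or CAGCTG lay in these 4 windows, which concerns these letters in these windows only.

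The H3K27ac signal of the 20-month-only regions was lower than that of regions shared between ages and like that of regions called at another single age. For every peak, the number of reads over its summit was recovered from the deposited fold and −log10 p, and summit coverage is this number divided by the mean over the genome. The 12669 regions had a median summit coverage of 9.19 times the genome mean (quartiles 6.79 and 12.4, lowest 3.99, highest 37.1), or 23 reads (10 to 93). Regions with a peak at 10 and 20 months had a median of 13.6, and regions with a peak at all 3 ages a median of 24.4. Regions with a peak at 10 months only had a median of 10.3 in the 10-month library, and those with a peak at 2 months only 9.52 in the 2-month library. Of the 20-month-only regions, 20.2% (95% interval 19.5 to 20.9) reached the median of the regions shared with 10 months, and 1.13% (0.952 to 1.33) reached that of the regions of all 3 ages. The median width of the members was 245 bp, compared with 502 bp for regions shared with 10 months and 751 bp for regions of all 3 ages, but 283 bp for regions of 10 months only and 210 bp for regions of 2 months only. Height and width decide whether a peak is called and how it merges, so these differences are partly built into the rule.

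**Figure D1:**
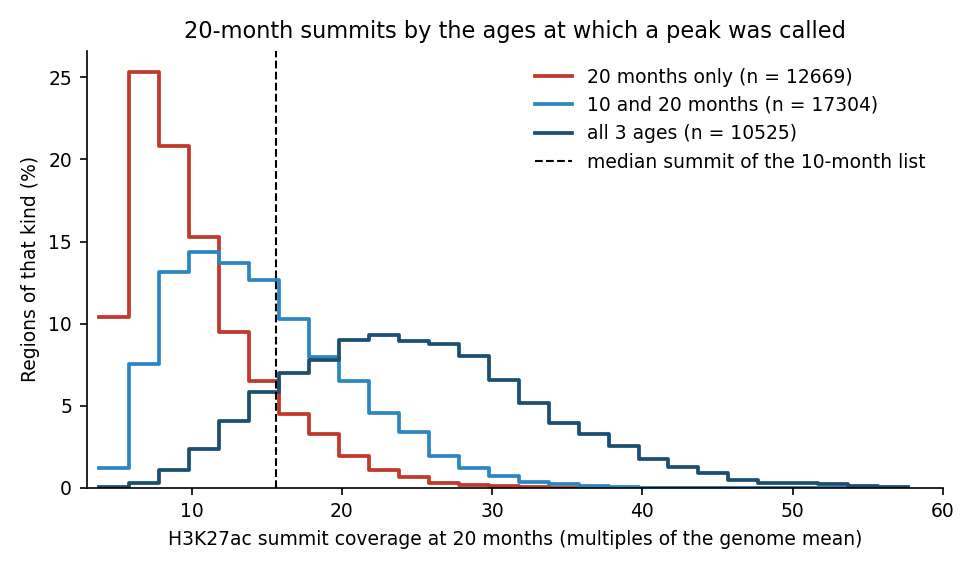
Share of regions (%) by 20-month summit coverage (multiples of the genome mean, bins of 5 reads, shown up to 60), for regions with a peak at 20 months only, at 10 and 20 months, or at all 3 ages. The 20-month-only regions sit lowest, with a median of 9.19 against 13.6 and 24.4, and 87.8% of them lie left of the dashed median summit of the 10-month list (15.6).

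Ranked by summit coverage and split into 10 groups of equal size, the regions with a 20-month peak showed a steep gradient in how many were seen at that age only. In the lowest group (3.99 to 6.79 times the genome mean) 77.9% were 20-month-only, in the fifth group 27.5%, and in the highest group (from 28.0 upward) 0.909%, that is 38 of 4182 regions. Across all groups the share was 30.3%. Height decides whether a peak is called, and a region takes its highest 20-month summit, so this gradient is partly built into the rule. The local background of the members was at a median of 2.13 times the genome mean and lay at the genome mean itself in 11.4% of them, compared with 3.13% of regions shared with 10 months and 0.485% of regions of all 3 ages.

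**Figure D2:**
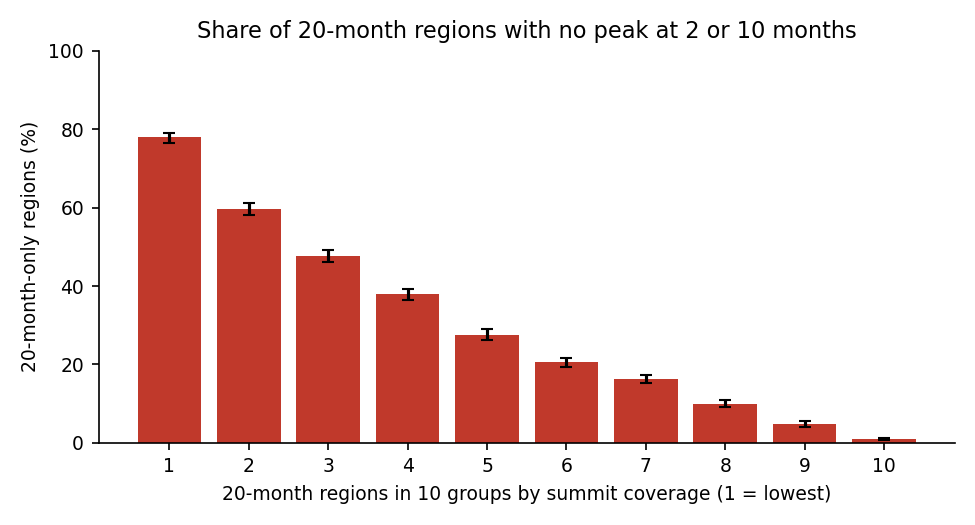
Share (%) of 20-month regions without a peak at 2 or 10 months, in 10 groups of about 4182 regions ranked by 20-month summit coverage. Error bars are exact 95% intervals for counting error; the share falls in every step from 77.9% in the lowest group to 0.909% in the highest.

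The 3 libraries differed in depth, and their peak lists began at different heights. From the deposited values the reads came to 15933339 at 2 months, 18888718 at 10 months, and 26302103 at 20 months, and the lists held 17247, 34506, and 43823 autosomal peaks in the same order. The lowest summit on a list was at 6.34, 4.46, and 3.99 times the genome mean. Of the 20-month-only regions, 84.8% were at or above the lowest summit of the 2-month list, and the rest lay below it. Only 0.916% of the 20-month-only regions lay below the lowest summit of the 10-month list, whereas 87.8% lay below its median summit (95.1% when RPM, reads scaled to the depth of the library, replaced multiples of the genome mean). Below that median also lay 62.6% of regions shared by 10 and 20 months, 44.3% of those of 2 and 20 months, and 13.7% of those of all 3 ages. In addition, 37.6% of the 20-month-only regions were narrower than 222 bp, the smallest peak of the 10-month list, while the smallest peak was 178 bp at 20 months and 148 bp at 2 months.

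Each member's coverage and local background were then carried over to the other libraries by scaling with their genome means. At the 10-month depth 98.4% (98.1 to 98.6) would have reached the smallest p on that list. A share of 61.5% (60.6 to 62.3) would have done so and was also at least 222 bp wide. These widths were those at 20 months and, unlike the coverage, were not carried over to the 10-month fragment length. The margin was small, with a median of 1.30 times the coverage needed and 80.8% of the members below 1.5 times. For regions shared by 10 and 20 months the median margin was 1.60, and 99.8% would have reached that p. The members had already passed a similar cut at 20 months (smallest −log10 p 4.12, against 4.16 at 10 months). A share near 100% was thus largely built into the rule. It does not show that the 10-month library would have called these regions. At the 2-month mean 43.3% (42.4 to 44.2) of the members would have reached the smallest p on that list. The 2-month list however had its background at the genome mean in 78.3% of peaks, against 2.87% at 10 months and 4.89% at 20 months. The part of depth, fragment length, and background in the number of members was not tested. When each list was cut to the 17247 autosomal peaks of smallest q, 2179 regions were 20-month-only, which is 13.2% of the regions with a 20-month peak.

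The 5 members of smallest −log10 q, the caller's adjusted p, had values from 2.06 to 2.09, with 10 to 18 summit reads, below the median of 23 over all members. They lay at chr15:83123396-83123595, chr8:34998421-34998679, chr10:24530652-24530913, chr8:111300968-111301195, and chr10:78250880-78251057 (mm9). By position, 10 members were separated from a peak of another age by 1 bp, and 56 by at most 10 bp. The 5 of these described here had 15 to 31 reads, such as chr15:84545490-84545808, with a coverage of 12.4 beside a shared region at 9.59. Just outside, 33 regions were left out by an overlap of at most 10 bp, and 2 of these only touched a peak of another age (chr15:100466732-100467117 with 20 reads and chr9:82867084-82867758 with 38 reads). The next 3, each with 1 bp of overlap, had 18 to 29 reads.

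The 20-month-only regions fell into 2 groups by their distance to the nearest region with a peak at another age. Of all members, 36.6% (35.8 to 37.5) lay within 1 kb, only 7.71% (7.25 to 8.19) lay between 1 and 5 kb, and 55.7% (54.8 to 56.5) lay farther. Beyond 10 kb were 5456 members (43.1%), and beyond 100 kb 681 (5.38%), with a median gap of 7.10 kb over all. Regions with a peak at 10 months only showed a similar trough, with 45.1% within 1 kb and 9.22% between 1 and 5 kb. Those with a peak at 2 months only had 57.3% within 1 kb and 25.2% between 1 and 5 kb, so the trough was not seen there. Among the other regions with a 20-month peak, 64.9% had another region of any kind within 1 kb. For 2.51% of them this region lay between 1 and 2.5 kb away, and for 3.62% between 2.5 and 5 kb. For 9.43% it lay between 5 and 10 kb away, and for 19.6% beyond 10 kb. A trough was thus not particular to regions of a single age, although this distance was taken to any kind of region. The limit of 1 kb was set after the distances had been seen.

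**Figure D3:**
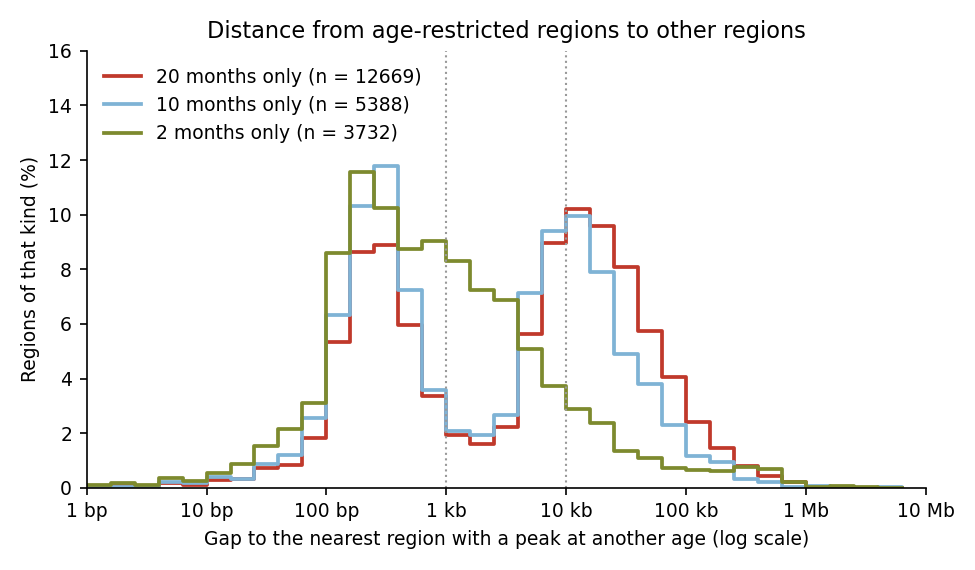
Share of regions (%) by the gap to the nearest region with a peak at another age (log scale), for regions with a peak at 20, 10, or 2 months only, with dotted lines at 1 and 10 kb. The 20-month-only curve has 2 humps, with 36.6% of regions within 1 kb, 7.71% from 1 to 5 kb, and 43.1% beyond 10 kb.

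Members within 1 kb of another region, called flanking here, numbered 4638 and had a median summit coverage of 11.6. Those between 1 and 10 kb away numbered 2575 and had a median of 9.99, and the 5456 remote members beyond 10 kb had a median of 7.19. The local background fell in the same order, from 3.14 to 2.69 and 1.44 times the genome mean. Median coverage was highest, at 13.6, in the trough from 1 to 2.5 kb, where the local background was also highest, at 4.25. Widths hardly varied, with medians of 244, 244, and 246 bp. The fold over background was largest for the remote members (median 3.98 against 3.34 for the flanking ones), so the group with the lowest summits had the largest fold over its surroundings. A peak is called by its p against the local background, and at a lower background a larger fold is needed. This order is therefore partly built into the calling of peaks.

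The flanking members differed in the ages of the region beside them. The nearest region had peaks at 10 and 20 months for 48.9% of them, at all 3 ages for 19.3%, at 10 months only for 20.2%, and at 2 months only for 8.02%. In the same order, these kinds numbered 17304, 10526, 5388, and 3732 of the 51147 merged regions, of which 12669 were the members themselves. Regions of 10 and 20 months were thus the commonest kind to begin with, and a preference for any kind was not tested. Where the neighbour also had a 20-month peak (3302 members), the member reached a median of 0.826 times its coverage and exceeded it in 21.8% (20.4 to 23.2). Only 7.20% of the flanking members had regions with a peak at another age within 1 kb on both sides. Over all members, 33.9% had a 10-month peak within 1 kb and 12.2% a 2-month peak. In the 3532 regions shared by 10 and 20 months with a member within 1 kb, the ratio of 20-month to 10-month coverage had a median of 0.983, compared with 1.01 in 22876 shared regions with no age-restricted region of these 2 ages nearby. In the 1618 shared regions with a 10-month-only region within 1 kb it was 0.961, so a lower ratio was not particular to regions beside members.

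The 10 members of highest coverage were nearly all flanking. The highest lay at chr15:99082152-99082361, with 93 reads (95% counting interval 75.1 to 114) and a coverage of 37.1, 0.311 kb from a region that reached 33.9 at 10 months and 28.4 at 20 months. Next came chr11:120810438-120810725 and chr19:45091971-45092164 with 85 reads each, chr16:91729109-91729360 with 84, and chr11:93999486-93999740 with 83. The others were chr17:26643296-26643487 with 82 reads, chr7:149682536-149682819 with 81, and chr11:21270983-21271194, chr14:56194588-56194829, and chr11:78869070-78869295 with 80 each. Of the 10, 9 lay within 0.447 kb of another region, and the member on chromosome 7 lay 1.99 kb away. Their backgrounds were high as well, from 5.77 to 15.3 times the genome mean. At chr16:91729109-91729360 the coverage of 33.6 exceeded that of the neighbouring region of all 3 ages, which was 16.1 at 10 months and 19.6 at 20 months. At chr14:56194588-56194829 the neighbour itself reached 17.4 at 10 months and 28.4 at 20 months. The highest remote member, at chr15:27433828-27434116, had 68 reads and a coverage of 27.2.

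The members were spread over all chromosomes in similar shares. They made up 21.9% (20.5 to 23.3) of the regions of chromosome 7 and 21.96% (20.7 to 23.3) of those of chromosome 11, and 28.2% (26.2 to 30.1) of those of chromosome 13, against the 24.8% over all. On chromosome 13, 49.8% of the members were remote, compared with 36.1% on chromosome 11. In windows of 1 Mb, 1852 held at least 1 member, with a median of 6. The densest windows held 26 members each, at 149 to 150 Mb of chromosome 4 and at 61 to 62 Mb of chromosome 18, beside 54 and 56 other regions. The window at 119 to 120 Mb of chromosome 7 held 25 members beside 30 others, and those at 5 to 6 Mb of chromosome 18 and 167 to 168 Mb of chromosome 2 held 24 each beside 34 and 61, tied with the window at 80 to 81 Mb of chromosome 12, which held 24 beside 30.

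Along the chromosomes, 50.1% of the members stood alone between regions of other kinds, and 22.6% were in 803 runs of 3 or more with no other kind of region between them. The longest run, at chr1:159437251-160960147, had 9 members over 1523 kb with coverages from 4.39 to 10.8. There were 7 runs of 8 members. The tightest of these, at chr17:32103093-32154800, spanned 51.7 kb with coverages from 7.59 to 17.97. The others that were looked at include chr2:58555629-59270523 (715 kb, up to 19.6), chr1:137405493-137556136 (151 kb, up to 13.6), and chr8:37809087-37943071 (134 kb, up to 12.0).

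To place the members beside genes, the ECM genes of the study's list were used, since theirs were the only gene positions on mm9 used here. The study compiled this list for its question on ECM and aging muscle, so it does not sample genes at random. Of the 591 regions within 100 kb of an ECM TSS, 144 were 20-month-only, a share of 24.4% (21.0 to 28.0) against the 24.8% of all merged regions, so the ECM genes had about the background share. They had a median coverage of 8.79 (4.79 to 24.0). Of the 83 genes, 65 had at least 1 such region, 8 had only regions of other kinds, and 10 had no region at all within 100 kb. The 8 include Fn1 (fibronectin), Postn (periostin), and Vcan (versican), and the 10 include Tnc (tenascin C). Of the 144 members, 35 (24.3%) lay within the ECM gene itself, 69 (47.9%) were remote, and 42 (29.2%) were flanking.

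By family, 20-month-only regions made up 24 of 57 regions (42.1%, 29.1 to 55.9) near the 8 collagen genes, and 16 of 41 (39.0%, 24.2 to 55.5) without Col1a1. Most of the 24 lay near Col1a1 (8 of 16 regions), Col5a1 (6 of 12), and Col6a1 (5 of 9). Near Col4a1 and Col4a2, which shared their members, the count was 2 of 12. It was 1 of 6 near Col2a1, and 1 of 1 near Col3a1 and near Col4a3. Near the 13 integrin genes, which encode subunits of receptors for the matrix and, for the leukocyte integrins, for other cells, they made up 20 of 126 (15.9%, 9.97 to 23.4). The laminins (24.6%), the matrix proteases of the Mmp and Adamts families (24.2%), their Timp inhibitors (26.3%), and the remaining genes (24.7%) were near the background of 24.8%. All 8 collagen genes had at least 1 member nearby, as did all 6 laminin genes. The interval of the 8 collagen genes lay above the background, but without Col1a1 it included the background. That of the integrins lay below it. Neighbouring regions and genes are not independent, and no test of these families was made.

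A 20-month-only region lay within 2.5 kb of the TSS of 15 ECM genes, and 17 of the 79 regions there (21.5%, 13.1 to 32.2, a region near the TSSs of 2 genes counting for each) were of this kind. This share was not above the 24.8% of all merged regions, so the promoters below are described for their identity and not as an excess. For 11 of the 15 genes it was the sole kind of region in that window. The 17 promoter members had a median coverage of 9.19 (5.19 to 17.2), and the 48 other promoter regions with a 20-month peak a median of 17.6. Of the 17, 12 (70.6%) lay downstream of the TSS, 4 upstream, and 1 over it. Of the 62 promoter regions of other kinds, 37 (59.7%) lay downstream, 19 upstream, and 6 over it, so most regions of either sort were downstream.

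Among structural collagens, Col5a1 had 2 members in the promoter, 0.349 and 1.02 kb downstream of the TSS, with 34 and 23 summit reads, and no other region there. Col4a3, which encodes a chain of type IV collagen in specialized basement membranes, had 1 member over its TSS (chr1:82583101-82583573, 18 reads, coverage 7.19), and this was the only region within 100 kb. Both genes were thus without a called promoter region at the earlier ages.

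Among matricellular and adhesive glycoproteins, Tgfbi had a member of 34 reads (coverage 13.6) 0.042 kb downstream of its TSS, at chr13:56711006-56711196. Thbs1, the thrombospondin that activates latent TGF-β, had 2 members 0.385 and 1.26 kb upstream, with 22 and 25 reads, and no other region within 100 kb. Thbs3 had a member of 32 reads 0.084 kb downstream, next to a region of 10 and 20 months on the upstream side, toward the neighbouring gene Mtx1 in RefSeq order, which reached 23.6 at 10 months and 21.97 at 20 months. Vtn had a member of 20 reads 0.213 kb downstream, beside an upstream region at 8.47 and 9.99 in the same order. The member of Fbln1 (fibulin-1, of elastic fibers and basement membranes) lay 2.27 kb downstream with 16 reads. Hence Tgfbi, Thbs1, and Fbln1 had no promoter region called at the earlier ages, whereas Thbs3 and Vtn had one upstream.

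Among proteases and inhibitors, Mmp2 (gelatinase A, which cleaves denatured and type IV collagen) had a member of 25 reads (coverage 9.99) 0.119 kb downstream of its TSS and no other promoter region. Timp2, an inhibitor that also takes part in the activation of pro-MMP2, had one of 27 reads 1.11 kb downstream. It lay beside a region of 2 months only and a region of all 3 ages, which had 11.1, 17.4, and 17.6 times the genome mean at 2, 10, and 20 months.

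Among cell adhesion molecules, Ctnnb1 (β-catenin, of adherens junctions and Wnt signaling) had the highest promoter member, with 43 reads and a coverage of 17.2, 0.328 kb downstream, between a region of 2 months only and a region of all 3 ages. Vcam1, an adhesion receptor for leukocytes, had a member of 19 reads 0.197 kb downstream. Ncam1, which is found at neuromuscular junctions and on denervated fibers and satellite cells, had one of 13 reads (coverage 5.19) 0.545 kb downstream. Itga2 (a collagen receptor subunit) had one of 16 reads 0.27 kb upstream, and Itgax (the CD11c integrin of dendritic cells and macrophages) one of 15 reads 1.65 kb upstream. Sgce, an imprinted gene of the sarcoglycan family that neighbours Peg10 in RefSeq order, had one of 26 reads (coverage 10.4) 0.109 kb downstream. Apart from that of Ctnnb1, these members were the sole promoter regions of their genes, and those of Vcam1, Ncam1, Itga2, and Itgax were all below the median of the 20-month-only regions.

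**Figure D4:**
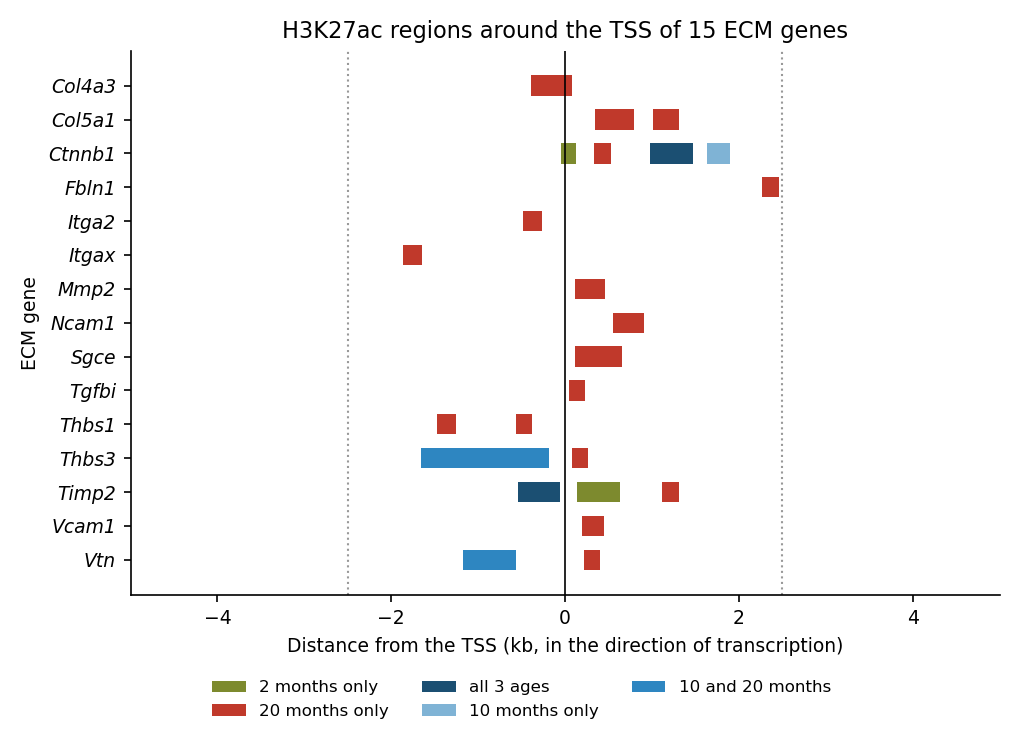
Regions within 5 kb of the TSS of the 15 ECM genes with a 20-month-only region in the promoter, by distance in kb along the direction of transcription, colored by the ages at which a peak was called, with dotted lines at 2.5 kb. In 11 genes the 20-month-only regions stand by themselves, and in Ctnnb1, Thbs3, Timp2, and Vtn regions of other ages lie beside them.

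For 9 ECM genes, 20-month-only regions were the sole regions within 100 kb of the TSS. Besides Fbln1 with 3, Thbs1 with 2, and Col4a3 and Ncam1 with 1 each, these were Col3a1 (the fibrillar collagen that accompanies type I), Syt1 (synaptotagmin-1), Lama3 (a laminin chain), Mmp1a (an interstitial collagenase), and Spock1 (a testican proteoglycan), each with 1. The Col3a1 member, at chr1:45347463-45347676, lay 20.7 kb upstream with 14 reads and a coverage of 5.59. The members of Syt1, Lama3, and Spock1 had 16, 17, and 16 reads and lay 81.3, 79.0, and 99.5 kb upstream, and that of Mmp1a had 15 reads and lay 97.4 kb downstream. The Mmp1a member lay within another gene of the list, Mmp8, 3.08 kb downstream of its TSS, and was also counted for Mmp10. The gap to the nearest region of another age ranged from 33.2 kb for Mmp1a to 312 kb for Ncam1 among the genes with 1 member. Apart from 1 of the 2 at Thbs1, which was higher, and 1 of the 3 at Fbln1, which equalled it, these summits were under the median of the 20-month-only regions.

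The most members were counted near Col1a1, the main chain of type I collagen in the muscle ECM, and Mmp11 (stromelysin-3), with 8 each. None of these lay within the gene it was counted for. Near Col1a1 the members made up 8 of 16 regions. In the order of the chromosome they had 27, 25, 22, 13, 24, 57, 24, and 25 summit reads, the first 4 lying 39.2 to 62.7 kb upstream and the others 21.5 to 70.1 kb downstream. The member of 57 reads (coverage 22.8) lay 36.9 kb downstream, where the local background was 6.97 times the genome mean. At the Col1a1 promoter itself the region was shared by 10 and 20 months, at 11.6 and 10.8. Of the 4 members near Itga3 (an integrin subunit that binds laminin), 3 were also counted for Col1a1. With Mmp11, 6 of its 8 members were flanking, against 1 of 8 with Col1a1, so those of Col1a1 mostly stood apart from regions of other ages. The order of the genes depended on the limits. Within 50 kb, Tgfbi had 5 members and Col1a1 and Mmp11 had 3 each, and with the 50% of each list of smallest q, Itga3 had 4, Col1a1 2, and Mmp11 0.

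Tgfbi, Col5a1, and Timp3 had 6 members each. Those of Tgfbi made up 6 of 10 regions, with 16 to 34 reads and gaps of 37.2 to 86.6 kb to regions of other ages, and those of Col5a1 made up 6 of 12, with 4 of them 58.3 to 83.8 kb upstream at 13 to 20 reads. With Timp3, the matrix-bound member of the inhibitor family, 3 of the 6 lay within the gene 14.7 to 20.5 kb downstream at 41, 55, and 45 reads, on a background of 6.85 to 7.20 times the genome mean. Col6a1 (type VI collagen, around the muscle fiber) had 5 of 9 regions, none within the gene, at 14 to 31 reads. Of these, 2 lay 6.29 and 7.48 kb upstream at 30 reads each. Lamb3 had 5 of 15, of which 4 were flanking, and Lamc1 and Timp2 had 4 each, of 19 and 21 regions.

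**Figure D5:**
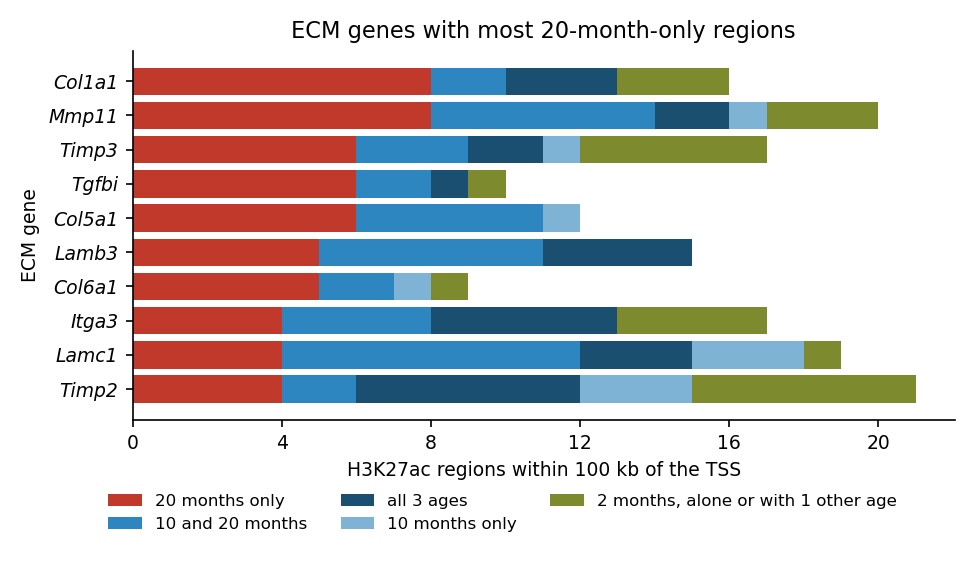
Number of H3K27ac regions within 100 kb of the TSS of the 10 ECM genes with most 20-month-only regions, stacked by the ages at which a peak was called. The 20-month-only regions range from 8 of 16 for Col1a1 and 8 of 20 for Mmp11 to 4 of 21 for Timp2.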

How the data were processed

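H3K27ac ChIP-seq peaks of TA muscle at 2, 10, and 20 months were used, with 1 library per age. Per the labels, the submitters' processing notes name Bowtie2, mm9, and MACS2 2.1.0. The study's methods give default MACS2 settings in a section that opens with public datasets, so it is unclear whether they held for these peaks. Neither the Bowtie2 version nor the use of a control library is given in the sources used here. The deposited values are the authors' peak and summit positions, a score, a fold (the ratio of summit pileup to background), and −log10 p and −log10 q. The score was not used further.

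Summit reads were recovered as the whole number that gives the fold and the −log10 p together (tolerance 0.001 in −log10 p). This failed for 1 peak each at 10 and 20 months, and for no member, and on simulated data it returned the reads of 100% of 5000 peaks per library. Coverage is relative to the genome mean, the floor of the background, and depth follows from that mean, the smallest peak width as fragment length, and the caller's mouse genome size. Regions near TSSs were measured from their edge. Intervals are exact (Clopper-Pearson for shares, Poisson for reads). No test of age was made. The planned annotation of all regions, cell type markers, and motifs in the members was not done, as no annotation or genome of mm9 was used.

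The members and lists were chosen with earlier results of these data known. Named items follow a rule: the 10 highest members, the 5 longest runs and densest 1-Mb windows, the 5 nearest each edge of the rule, and ECM genes with a member within 2.5 kb, with members only, or among the 10 with most. Other items were named after their values were seen. Calculations used scipy 1.17.1, numpy 2.4.6, and pandas 2.3.3 under Python 3.11.15, and plots matplotlib 3.10.9. RefSeq matched 65 of the 65 ECM genes with a member.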

Additional observations from a re-analysis of the deposited data

Results flagged for a closer look

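The X chromosome was not part of the comparisons. It held 281 regions with a peak at 20 months only, of 1459 merged regions (19.3%, 95% interval 17.3 to 21.4), or 31.7% of its regions with a 20-month peak, against 30.3% on chromosomes 1 to 19. At the summit they had a median of 7.99 times the genome mean. The lists held 76, 1, and 1 peaks on the Y chromosome at 2, 10, and 20 months, and the sex of the mice is not given in the sources used here.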

How the results depend on the processing

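The number of 20-month-only regions was 7298 when peaks within 1 kb were merged, 5493 with the 50% of each list of smallest q, 2179 with lists of equal length, 5062 when 20-month summits had to reach 10 times the mean of the genome, and 8222 with peaks at least 222 bp wide. It stayed within 1.5 times when another age had to cover at least 50% of a region (13690), when the other ages' peaks were extended by 500 bp (8937), and without crowded 1-Mb windows (12643). Median coverage was 14.8 with the 50% of smallest q and 7.99 with merging, and the share below the 10-month median summit was 95.1% on the RPM scale. The share within 10 kb of another region was 44.3% at 5 kb, 87.8% at 50 kb, 32.1% with merging, and 46.9% with the 50% of smallest q. The share within 1 kb was 30.4% at 500 bp and 40.1% at 2.5 kb, limits chosen after the data had been seen. Members near ECM genes numbered 70 within 50 kb, 69 with the 50% of smallest q, and 93 with merging, and the genes with a member numbered 42 with that list. With promoters of 1 and 5 kb, 12 and 17 ECM genes had a member there. For the 10 ECM genes with most members, 6 of 30 recomputed counts stayed within 1.5 times. Merging, distances, and thresholds change these values by their own construction. No paired analysis was possible because each age has 1 library. With 1 library per age, and the deepest at 20 months, age and library cannot be told apart, and a region without a peak was not shown to lack signal.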
